A study of Carica papaya with 15 samples.

Results

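Papaya fruit were held in ethylene for 12 h and then kept out of the gas for another 12 h, and the question was how far the response of the pulp had changed between those times. The ethylene effect on a gene at one time was the mean log2 level in treated pulp minus the mean log2 level in control pulp of the same age, and the measure described here was that effect at 24 h minus that effect at 12 h. A positive difference means that treated fruit stood higher relative to their controls at 24 h than at 12 h. It was formed for those 15270 of the 20332 rows of the expression table that averaged 5 normalized counts or more, from 11 of 15 RNA-seq libraries. LOC110813187, at a mean of 5.001, was the gene just inside that filter, with a difference of 1.59, and LOC110810633, at 4.999, was the gene just outside it.

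The fruit were "Golden" papayas bought before the climacteric rise in ethylene, in 3 harvests (A, B and C), and each library was made from the pulp of at least 5 pooled fruit. The pools of separate harvests, and not single fruit, were therefore the replicates. T12h (3 libraries) was pulp of fruit held for 12 h in 100 ppm ethylene and, by the study's methods, air-vented before freezing. C12h (3 libraries) was pulp of untreated fruit of the same age. T24h (3 libraries) was pulp of fruit given the same 12 h of gas and sampled at 24 h, and C24h was untreated fruit at 24 h. Of C24h the libraries of harvests A and C formed the group mean, and C24h B was left out because of its own expression values. C0h (3 libraries), fruit frozen at the start, entered the estimate of the spread and, like C24h B, the mean by which genes were kept.

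Ethylene is a gaseous plant hormone that is bound by receptors in the endoplasmic reticulum. Binding switches off a kinase that otherwise blocks the pathway, and transcription factors then turn on further layers of genes. In climacteric fruit the hormone starts its own synthesis, so that ripening can go on once the outside gas has been removed. By the study's methods the gas was given in a closed system, and whether controls were enclosed in that way is not stated. If they were not, the gas and the enclosure cannot be told apart. The gas was removed at 12 h from all treated fruit. Its removal, release from the enclosure and the time since the gas began therefore cannot be told apart in these groups. Gene symbols below are those of the RefSeq table, and the roles given with them are known mainly from Arabidopsis.

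The library labelled C24h B stood with treated pulp. Of all 105 pairs of libraries it formed the closest one with T24h C, at a mean absolute log2 difference of 0.257, whereas libraries of the same group lay 0.352 to 0.584 apart, C24h B aside. A chi-square test of their recovered reads over genes gave 1.94 per degree of freedom for this pair, against 11.7 for the next closest pair and 15 or more within groups. The pair was labelled with different harvests and differed by more than sampling noise. Whether this touches the label of C24h B or that of T24h C cannot be told apart, and T24h C enters every T24h mean. The paper, which also saw C24h B apart from other controls, proposes that a slightly higher ethylene yield in this sampling was the probable reason. That was not tested here. With T24h C left out as well as C24h B, all 9 calls described below passed, and without T24h C alone 574 genes passed between T24h and T12h. Over the 3280 genes whose effect at 24 h exceeded 1 in size without C24h B, the median position of that library was 0.985 on a scale on which 0 is the mean of C24h A and C and 1 is the mean of T24h. T24h A also lay off its group, at a median position of 0.475 between T12h (0) and T24h B and C (1), over the 2438 genes for which those means differed by more than 1. The position of T24h B, set in the same way against the other libraries of its group, was 1.04 and that of T24h C was 0.713. The reads recovered from 13 libraries numbered 7999275 to 12542678.

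Markers of tissue that peeled and seedless pulp could carry over were summed in each library. The 21 peel and epidermis genes summed to 14137 to 16515 normalized counts in T12h, against 13024 to 13466 in C12h, and to 15373 to 16726 in T24h, against 14066 and 12958 in C24h A and C. The 17 vascular and xylem genes summed to 6866 to 9595 in T12h, against 973 to 1516 in C12h, and to 2336 to 6950 in T24h, against 988 and 1164 in C24h A and C. That sum was carried by IRX3, a cellulose synthase subunit of the secondary wall, at 5977, 5846 and 8696 in T12h A, B and C and at 5451, 748 and 4023 in T24h A, B and C. The library labelled C24h B had a vascular sum of 5778, with IRX3 at 4228. The xylem protease gene XCP1 had 16.7, 19.9 and 31.1 in T12h A, B and C, against 8.05, 7.30 and 4.06 in C12h. At 24 h it had 33.9, 108 and 112 in T24h, against 15.7 and 4.34 in C24h A and C. REV, another marker of the list, went the other way at 12 h. It had 165, 190 and 99.96 in T12h, against 301, 319 and 471 in C12h. At 24 h the groups of REV overlapped, at 247, 384 and 484 in T24h and 213 and 630 in C24h A and C. The cellulose synthase genes IRX1 and CESA4 reached at most 16.7 and 5.77, and MYB83 and NST1, switches of xylem wall formation, were at 0 throughout. The 8 tested vascular and xylem genes had a median difference of 0.83, with 5 above 0, whereas IRX3 had the lowest, at -1.47. The 12 seed genes summed to 886 to 1189 in T12h, against 771 to 830.0 in C12h, and to 895 to 1544 in T24h, against 616 and 925 in C24h A and C. The 40 chloroplast genes of green tissue summed to 1864 to 2387 in T12h, against 2224 to 2925 in C12h, and to 1596 to 2342 in T24h, against 2429 and 3256 in C24h A and C. Whether these tissues had a part in the differences was not tested, and in bulk pulp fewer cells of a type and less RNA per cell cannot be told apart.

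The test of the difference compared both effects in a single model (limma on log2 of the value plus 1). With all 15 libraries, no gene passed an adjusted p of 0.05 (0 of 15270, or 0%), while 1938 genes (12.7% of those tested) reached 0.05 before adjustment, 1074 higher (7.03%) and 864 lower (5.66%). On the reads recovered from 13 of the libraries, edgeR called 0 genes and DESeq2 13. With C24h B left out, 9 genes passed (0.0589%), 5 higher (0.0327%) and 4 lower (0.0262%), and 2271 (14.9%) reached 0.05 before adjustment. Since that library was left out for its values, these 9 calls depend on a choice made from the outcome. All other differences below are descriptions of size, with the p of the same model beside them where it helps.

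Over all genes the difference had a median of 0.00 and a standard deviation of 0.746, against 1.03 for the effect at 12 h and 0.974 for the effect at 24 h. It was above 1 for 1167 genes (7.64%) and below -1 for 1049 (6.87%). Of the genes above 1, 469 (40.2%) had been more than 1 below their controls at 12 h and lay within 1 of them at 24 h. Another 268 (23.0%) lay within 1 of controls at 12 h and more than 1 above them at 24 h, and 82 were above at both times and further at 24 h. Of the genes below -1, 320 (30.5%) had been more than 1 above controls at 12 h and lay within 1 at 24 h, and 322 (30.7%) lay within 1 at 12 h and more than 1 below at 24 h. In 1927 of these 2216 genes (87.0%) T24h minus T12h was larger in size than C24h minus C12h. These genes were picked for a large gap between those changes, with C24h B left out. The share over all genes was not taken, so the 87.0% describes the picked genes only.

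**Figure D1:**
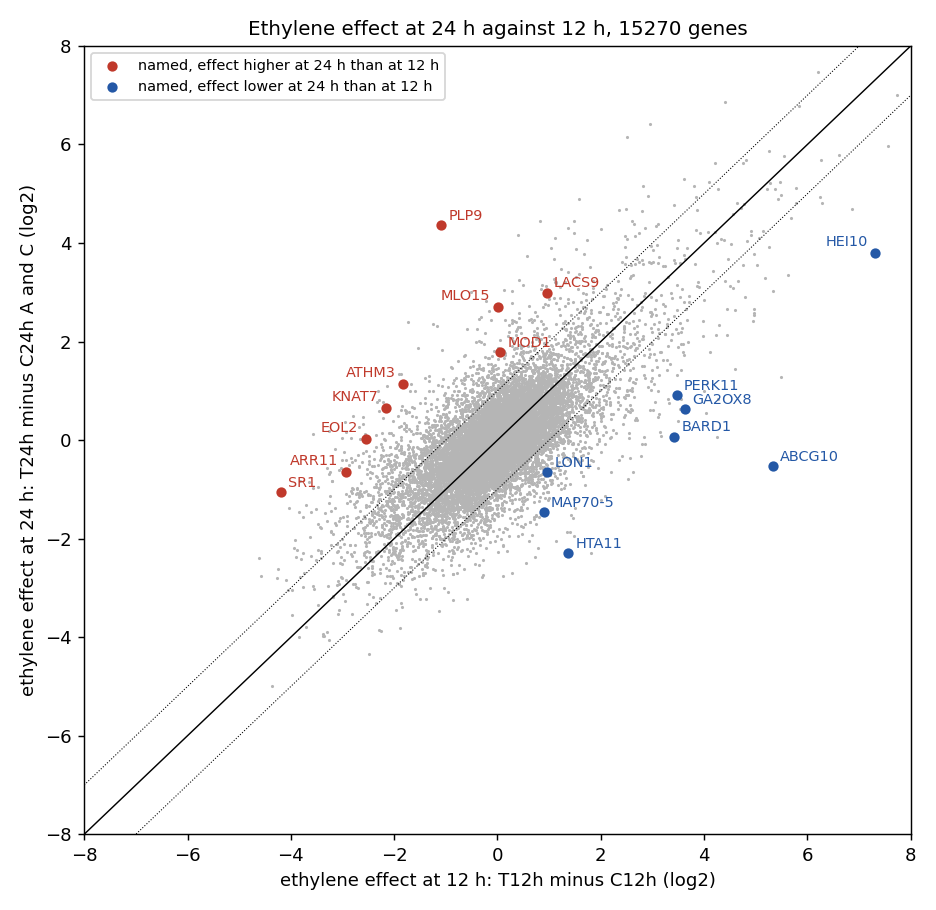
Each grey point is 1 of 15270 genes, with the ethylene effect at 12 h (T12h minus C12h, log2) on the horizontal axis and the effect at 24 h (T24h minus the mean of C24h A and C, log2) on the vertical axis. The solid line marks equal effects and the dotted lines a difference of 1 and -1. Red points are named genes above the line, such as PLP9 at -1.09 and 4.37, and blue points named genes below it, such as ABCG10 at 5.34 and -0.53.

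The components of the difference can be read on their own. T12h and C12h differed at 3675 genes (24.1%), 1791 higher (11.7%) and 1884 lower (12.3%) in T12h. T24h and T12h, a comparison without a control library, differed at 842 genes (5.51%), 490 higher (3.21%) and 352 lower (2.31%) in T24h. No gene passed between T24h and C24h with all libraries (0 of 15270, 2843 or 18.6% before adjustment), and 3601 (23.6%) passed without C24h B. Between C24h and C12h no gene passed either way, with 549 (3.6%) at 0.05 before adjustment and 222 (1.45%) without C24h B. The count between T24h and T12h rested on single libraries: it was 36 without T24h B, 69 without T12h B, 119 without T12h C, 514 without T12h A, 525 without C12h C and 1607 (10.5%) without C24h B. Leaving out any other library gave 567 to 1140. The count between T12h and C12h was 5180 (33.9%) without C24h B, and it was 841 if C12h A was left out, 876 if C12h C, 1153 if T12h C and 1936 if T12h B was left out. Of 55 genes described below that passed between T24h and T12h, 12 passed without each library in turn. With harvest as a replicate block 669 genes passed, and 8 of these 55 calls were lost, as given with each. Genes named for the size of their difference were chosen from the same libraries, so these tests are not independent of that choice.

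Of the 9 genes that passed without C24h B, 5 had the higher effect at 24 h. ATHM3, an m-type thioredoxin of plastids, stood at 22.3, 24.9 and 22.2 normalized counts in T12h A, B and C, against 106, 69.4 and 82.0 in C12h. At 24 h it stood at 134, 187 and 108 in T24h, against 59.8 and 65.9 in C24h A and C. Treated pulp thus lay below controls in every library at 12 h and above both at 24 h, and the library labelled C24h B, at 122, lay inside the T24h range. Its effect was -1.83 at 12 h and 1.14 at 24 h, a difference of 2.97 (SE 0.38, adjusted p = 0.025, and 2.65 with adjusted p = 0.13 with all libraries).

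LOC110809504 and LOC110823892, which have no symbol, turned over in the same way. LOC110809504 had 103, 77.5 and 119 normalized counts in T12h, against 351, 290.3 and 325 in C12h, and 419, 559 and 538 in T24h, against 254 and 245 in C24h A and C. LOC110823892 had 27.9, 28.8 and 29.99 in T12h, against 56.3, 55.7 and 73.1 in C12h, and 159.7, 236 and 191 in T24h, against 97.5 and 67.7 in C24h A and C. In both, treated and control libraries did not overlap at either time, and the differences were 2.71 (adjusted p = 0.025) and 2.30 (adjusted p = 0.0363).

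LOC110825205 and LOC110809761 moved late. LOC110825205 had 85.8, 68.6 and 82.2 normalized counts in T12h, against 68.0, 59.3 and 65.8 in C12h, and 341, 391 and 256 in T24h, against 61.9 and 34.7 in C24h A and C. LOC110809761 had 579, 538 and 456 in T12h, against 593, 529 and 487 in C12h, and 1429, 1480.0 and 1305 in T24h, against 594 and 444 in C24h A and C. For LOC110809761 the groups overlapped at 12 h, whereas T12h of LOC110825205 lay just above C12h, and in both genes every T24h library stood far above both controls. The differences were 2.50 (adjusted p = 0.0435) and 1.48 (adjusted p = 0.025).

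The 4 genes with the lower effect at 24 h lay above every control at 12 h and below both at 24 h. LON1, a protease of mitochondria, stood at 749.8, 523 and 612 normalized counts in T12h, against 315, 310.4 and 330.4 in C12h, and at 265, 275 and 264 in T24h, against 401 and 442 in C24h A and C. MAP70-5, a microtubule-associated protein known from wall patterning in xylem, stood at 516, 561 and 526 in T12h, against 265, 313 and 286 in C12h, and at 165, 104 and 123 in T24h, against 276 and 457 in C24h A and C. In both genes the treated libraries were the highest of all at 12 h and the lowest at 24 h among the libraries compared. LON1 had a difference of -1.61 (SE 0.23, adjusted p = 0.025) and MAP70-5 one of -2.36 (SE 0.31, adjusted p = 0.025). LOC110817712 (-2.02, adjusted p = 0.025) and LOC110820624 (-3.05, adjusted p = 0.025) had no symbol. LOC110817712 fell to 119.8, 117 and 171 normalized counts in T24h, against 428, 607 and 663 in T12h, and 246 and 312 in C24h A and C stood near the 267, 299 and 282 of C12h. LOC110820624 fell to 16.9, 10.1 and 11.5 normalized counts in T24h, against 75.8, 90.5 and 139 in T12h (adjusted p = 0.0163). Between T12h and C12h, in the limma fit of all libraries, LON1 and LOC110817712 passed (adjusted p = 0.00507 and 0.0147). MAP70-5 (0.0692) and LOC110820624 (0.483) did not.

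**Figure D2:**
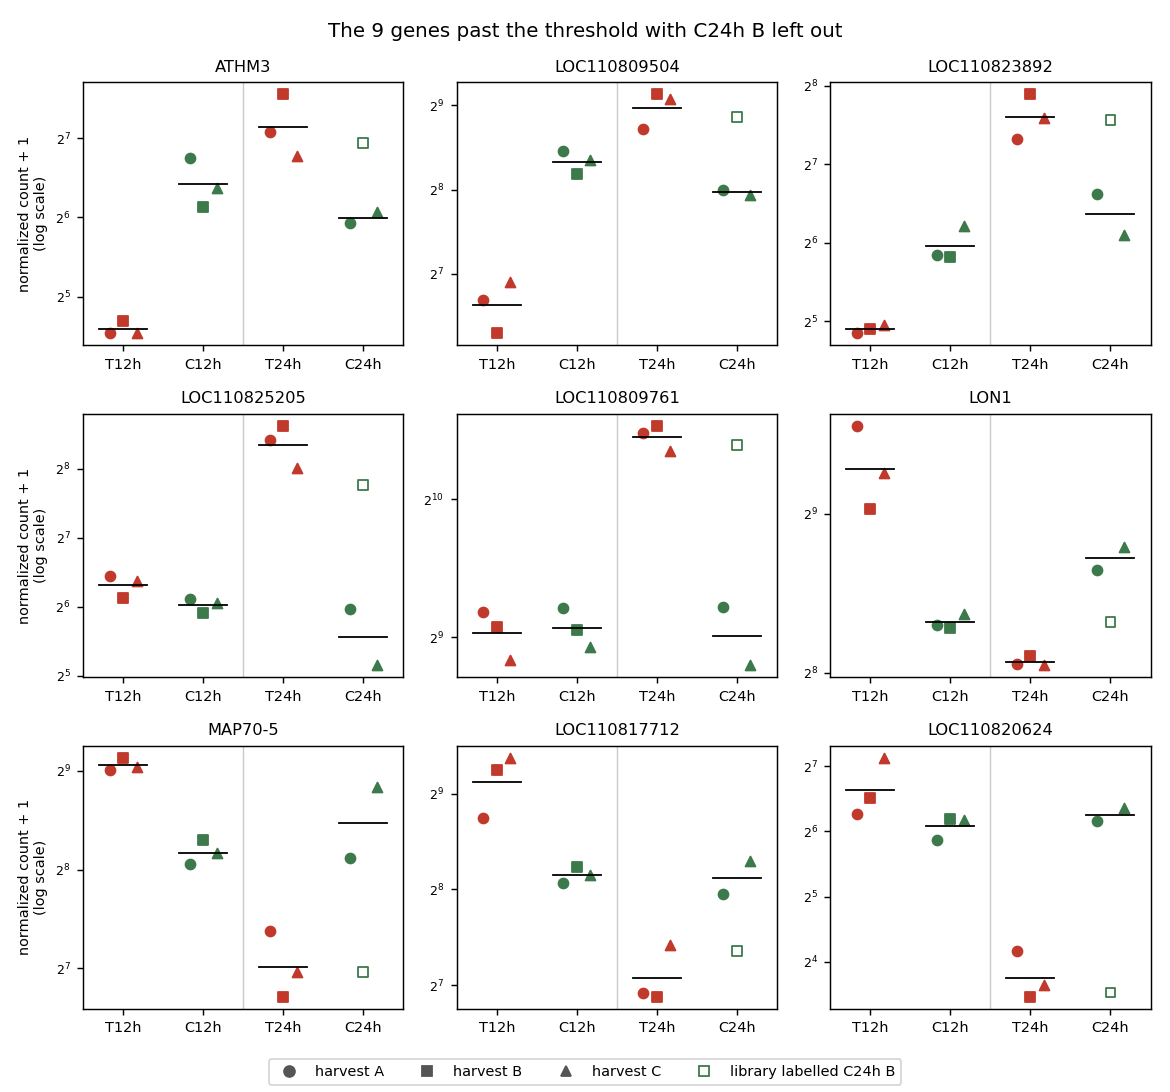
Normalized counts plus 1 on a log axis for the 9 genes that passed the test with C24h B left out, in T12h, C12h, T24h and C24h. Filled symbols are libraries (circle, square and triangle for harvests A, B and C), the hollow square is the library labelled C24h B, and the bar is the mean of the log2 values without it. In all 9 panels the hollow square lies nearer to the T24h symbols than to the other C24h symbols. That library also lay nearer to T24h in 90.6% of the 3280 genes with an effect at 24 h beyond 1 in size.

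The libraries of a letter share a harvest, and with harvest as a replicate block none of the 9 passed (adjusted p of 0.0519 to 0.0882). With C0h left out of the fit 2 passed. Nor were the calls stable to leaving out a library. None passed when a C12h library, T12h B, T12h C, C24h C or T24h B was left out, with adjusted p values of 0.058 to 0.231, and all 9 passed without T12h A, C24h A, T24h A or T24h C. Their direction was the same in each of these fits. Between T24h and T12h alone, all 9 passed (adjusted p = 0.00166 for ATHM3 to 0.0283 for LOC110825205), against 5.51% of all genes. That change is part of the difference by which the 9 were picked, in the same treated libraries, so it is no separate support for them. Of the calls between T24h and T12h, that of LOC110825205 was lost without T12h A, T12h B, T12h C or T24h B, those of LOC110809761 and LOC110820624 without T12h B, T12h C or T24h B, and that of MAP70-5 without T24h B, with adjusted p values up to 0.128.

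The commonest course among genes with a difference above 1 was a low level at 12 h that was made up by 24 h (469 of 1167). KNAT7, a homeobox regulator of secondary wall formation, had 26.7, 21.9 and 13.3 normalized counts in T12h, against 107, 72.1 and 99.8 in C12h. At 24 h it had 150.0, 239 and 111 in T24h, against 104 and 98.0 in C24h A and C. Treated libraries lay at a fraction of every control at 12 h and above both at 24 h, with the library labelled C24h B at 142. The difference was 2.80 (SE 0.47, adjusted p = 0.0504, and 0.13 with all libraries). T12h was lower than C12h (adjusted p = 0.00337) and T24h was higher than T12h (adjusted p = 0.00166), also without each library in turn.

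Brassinosteroids are growth hormones, and their receptor gene and several synthesis genes followed that course. BRI1, the receptor kinase, stood at 159, 114 and 139.9 normalized counts in T12h, against 609, 341 and 514 in C12h, and at 740.4, 1515 and 683 in T24h, against 722 and 499 in C24h A and C. All T12h libraries lay well below the lowest control, while at 24 h the ranges of T24h and C24h overlapped. CPD, a cytochrome P450 of brassinosteroid synthesis, stood at 111, 208 and 93.3 in T12h, against 505, 354 and 332 in C12h, and at 385, 415 and 407 in T24h, against 587 and 222 in C24h A and C. The differences were 2.40 for BRI1 (adjusted p = 0.0625), 1.74 for CPD and 1.82 for CYP90D1, another P450 of the route. Of 11 genes of brassinosteroid synthesis, breakdown and perception, a group drawn from a wider hormone list after its values were seen, 8 had a positive difference, with a median of 0.21, against 50.2% and 0.00 over all genes. DET2 (-0.98), BAS1 (-0.72) and BRL2 (-0.13) had a negative one. DET2, BAS1 and DWF4 stood above controls at 12 h, with effects of 0.96, 2.07 and 1.04. Between T12h and C12h 4 of the 11 fell and 2 rose, against 12.3% and 11.7% of all genes, and between T24h and T12h 3 rose and 0 fell, against 3.21% and 2.31%. BRI1 rose between T12h and T24h (adjusted p = 0.00166, also without each library in turn). CPD passed between T24h and T12h at 0.0188 and lost it without T12h A, T12h C or T24h B, and CYP90D1 passed at 0.0364 and lost it when any 1 of 7 libraries was left out (adjusted p up to 0.169).

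Abscisic acid is a hormone of stress and of fruit ripening that is sensed by soluble receptors. OST1, a kinase that carries the signal on, had 286, 167 and 126 normalized counts in T12h, against 521, 387 and 530.1 in C12h, and 414, 948 and 562 in T24h, against 486 and 567 in C24h A and C. The groups of OST1 were apart at 12 h and overlapped at 24 h, a difference of 1.58. The receptors RCAR3 (1.27) and PYL7 (1.204) differed in the same direction. PP2CA, a phosphatase that holds the kinases inactive, had 1548, 2452 and 2546 in T12h, against 1518, 1784 and 1585 in C12h, and 642, 906 and 963 in T24h, against 1479 and 1837 in C24h A and C. Its treated libraries lay below both controls at 24 h only, with the library labelled C24h B at 902, a difference of -1.39.

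The whole abscisic acid list, of which 19 of 24 in the table were tested, had a median of -0.12, with 9 above 0. Split by role after the values were seen, all 3 phosphatases of that family (PP2CA, ABI2 and HAB1) had a negative difference and 5 of the 7 receptors and kinases a positive one, with medians of -1.39 and 0.78. The exceptions were the kinase SNRK2-8 (-1.001) and the receptor PYR1 (-0.32). With all 15 libraries 2 of the 3 phosphatases and 5 of the 7 receptors and kinases had those signs. OST1, RCAR3 and PYL7 rose between T12h and T24h (adjusted p = 0.014, 0.00298 and 0.0203) and PP2CA fell (0.0149). Without T12h B, T12h C or T24h B these calls were lost, RCAR3 excepted, with adjusted p values up to 0.106.

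Auxin response factors bind the promoters of auxin-regulated genes, and 3 of them followed the course of BRI1. ARF4, an auxin response factor, had 123, 41.8 and 62.2 normalized counts in T12h, against 292, 173 and 176 in C12h, and 223, 390.4 and 215 in T24h, against 256 and 144 in C24h A and C. ARF10 (1.61) and ARF17 (0.90) differed like ARF4 (2.05), while the other 7 of 10 measured auxin response factors lay between -0.40 and 0.35. ARF4, ARF10 and ARF17 passed between T24h and T12h (adjusted p = 0.0151, 0.0319 and 0.0269) and lost it without T12h B, T12h C or T24h B (up to 0.159).

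ATAUX2-11, an Aux/IAA repressor of auxin response, had 14.5, 4.97 and 5.55 normalized counts in T12h, against 26.8, 9.13 and 23.5 in C12h, and 41.1, 75.5 and 60.0 in T24h, against 14.7 and 7.81 in C24h A and C. Its groups overlapped at 12 h and were apart at 24 h, a difference of 3.48 (SE 0.70). ARR11, a transcription factor of cytokinin response, had 11.1, 9.94 and 11.1 in T12h, against 97.5, 62.1 and 116 in C12h, and 46.0, 149 and 60.0 in T24h, against 109 and 128 in C24h A and C. Treated libraries of ARR11 were several-fold below every control at 12 h and overlapped with them at 24 h, a difference of 2.28.

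EOL2 belongs to a family that marks ACC synthase, the enzyme making the ethylene precursor, for breakdown. It stood at 41.2, 21.9 and 17.8 normalized counts in T12h, against 169, 118 and 179 in C12h, and at 108, 175 and 261 in T24h, against 179 and 156 in C24h A and C. T12h lay below every control and T24h on both sides of its controls, with T24h A the lowest, a difference of 2.57 (SE 0.49). ARR11 and EOL2 were lower in T12h than in C12h (adjusted p = 0.00324 and 0.00294) and higher in T24h than in T12h (0.00937 and 0.00304), also without each library in turn.

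Several genes that were low at 12 h stood higher in T24h B and C than in T24h A. HSFA6B, a heat shock factor, had 25.6, 12.9 and 9.996 normalized counts in T12h, against 271, 131 and 255 in C12h, and 26.6, 269.6 and 133 in T24h, against 234 and 265 in C24h A and C. RL4, a small MYB-related protein, had 12.3, 3.98 and 4.44 in T12h, against 80.5, 46.6 and 64.1 in C12h, and 8.47, 87.5 and 66.9 in T24h, against 37.8 and 47.7 in C24h A and C. In both, T24h A stood with the T12h libraries, while T24h B and C stood above C24h A and C for RL4 and on both sides of them for HSFA6B. Harvest A alone gave a difference of 0.26 for HSFA6B and 0.59 for RL4, and harvest C gave 3.55 and 4.06. CDKD1;3, a kinase that activates cell cycle kinases (2.59), and SR1 (3.14) likewise had their lowest T24h value in harvest A, at 14.5, 63.4 and 41.5 and 20.6, 98.6 and 108 in T24h A, B and C. The effect at 24 h was still -1.32 for HSFA6B and -1.05 for SR1, with SR1 at 107 and 151 in C24h A and C. HSFA6B, RL4, CDKD1;3 and SR1 passed between T24h and T12h at adjusted p values of 0.0363, 0.048, 0.023 and 0.0121, and lost it without T12h B or T24h B among others (up to 0.214). With the replicate block HSFA6B (adjusted p = 0.0528) and RL4 (0.0662) lost it. Over all genes, harvests A and C taken alone gave a difference of the same sign for 9398 of 15270 genes (61.5%).

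Large differences of this kind were also seen in a pair of genes without a symbol and in a sugar transporter gene. LOC110821627 had 30.1, 14.9 and 31.1 normalized counts in T12h, against 91.2, 109 and 56.0 in C12h, and 363, 587 and 130.3 in T24h, against 70.3 and 45.1 in C24h A and C, a difference of 4.13. It lay below its controls at 12 h and above them at 24 h in every library, but T24h C was the lowest treated library, close to the 128 of the library labelled C24h B. LOC110817361 had a difference of 3.43, with 234, 49.7 and 25.5 in T12h, against 1223, 495 and 449.7 in C12h, and 404, 789 and 264 in T24h, against 447 and 337 in C24h A and C. It passed between T24h and T12h (adjusted p = 0.0485), but not with the replicate block (0.0606) or without any 1 of 9 libraries. SWEET3, a sugar transporter, had a difference of 3.25, but its levels of 159.7, 39.2 and 47.3 in T24h and of 125 and 6.94 in C24h A and C overlapped and each ran highest in harvest A, and it did not pass between T24h and T12h (adjusted p = 0.0996) except with the replicate block (0.0331).

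The second course was a level that overlapped with controls at 12 h and stood well above them at 24 h. PLP9, a patatin-like lipid acyl hydrolase, had the largest positive difference of all genes tested. It had 275, 20.9 and 25.5 normalized counts in T12h, against 107, 163 and 86.0 in C12h. At 24 h it had 2703, 2824 and 1731 in T24h, against 224 and 57.3 in C24h A and C, with the library labelled C24h B at 1867. T12h A lay above all controls of its age and T12h B and C below them, whereas at 24 h each treated library was several-fold above both controls. The difference was 5.46 (SE 1.30, adjusted p = 0.106) and 4.11 with all libraries (adjusted p = 0.324). T24h was higher than T12h (adjusted p = 0.0181, lost without T12h B, T12h C or T24h B, up to 0.0916).

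Fatty acids are made in plastids, from acetyl-CoA that acetyl-CoA carboxylase turns into malonyl-CoA, and most measured genes of that route had a positive difference. CAC2, the biotin carboxylase subunit of that enzyme, had 553, 558 and 493 normalized counts in T12h, against 784, 481 and 447 in C12h, and 1808, 2063 and 984 in T24h, against 652 and 443 in C24h A and C. MOD1, the enoyl-ACP reductase of the elongation cycle, had 986, 1184 and 1184 in T12h, against 1347, 960.5 and 960.3 in C12h, and 4735, 3622 and 2385 in T24h, against 1152 and 872 in C24h A and C. Both genes overlapped between the groups at 12 h and lay above both controls in every T24h library at 24 h. The library labelled C24h B, at 943 for CAC2 and 2425 for MOD1, was at the level of T24h C. The differences were 1.57 for CAC2 (adjusted p = 0.12) and 1.73 for MOD1 (adjusted p = 0.0754).

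Of 12 measured genes of plastid fatty acid synthesis and desaturation, grouped after their values were seen, 11 had a positive difference, with a median of 1.08 and a range of -0.24 (FATB) to 1.90 (BCCP2), against a median of 0.00 over all genes. With all 15 libraries the median was 0.42, and 9 of 12 were positive. Of the 12, 3 rose between T12h and T24h and none fell, against 3.21% and 2.31% of all genes. These were CAC2, CAC3 and MOD1 (adjusted p = 0.0165, 0.0181 and 0.0163), and each of those calls was lost without T12h B, T12h C or T24h B (up to 0.0996).

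Genes next to that route included LACS9 and BIO2. LACS9, which activates fatty acids at the plastid envelope, had 792, 618 and 933 normalized counts in T12h, against 546, 430.0 and 269.5 in C12h, and 4132, 4474 and 1692 in T24h, against 565 and 277 in C24h A and C, a difference of 2.04, and of 1.32 with all libraries. T24h C stood well below T24h A and B, near the 1779 of the library labelled C24h B, and treated libraries were above controls at 12 h as well. BIO2, the biotin synthase that supplies the cofactor of the carboxylase, had a difference of 1.54, and BIO2 rose between T12h and T24h (adjusted p = 0.0148, lost without T12h B, T12h C or T24h B, up to 0.0848). LACS9 passed between T24h and T12h (adjusted p = 0.0457) and lost it without any 1 of 9 libraries (up to 0.189). In the wider list of fatty acid and lipid genes, of which 42 of 51 in the table were tested, 29 had a positive difference (median 0.28) and 10 were above 1, whereas 7.64% of all genes were. Of those 42, 5 rose and 1 fell between T12h and T24h, against 3.21% and 2.31% of all genes.

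GLB1, a plant haemoglobin that is induced when oxygen is short, stood at 315, 424 and 337 normalized counts in T12h, against 422, 403 and 368 in C12h, and at 1184, 1117 and 677 in T24h, against 358 and 376 in C24h A and C. The groups overlapped at 12 h and were apart at 24 h, a difference of 1.55 (SE 0.29, adjusted p = 0.0749). T24h was higher than T12h (adjusted p = 0.00976, and 0.0625 at most without a single library, T24h B). Of the 4 tested genes of hypoxia and fermentation 2 had a positive difference, with a median of -0.06, against 50.2% and 0.00 over all genes. ADH1, of the same list, went the other way, with a difference of -1.16. It had 25.4, 39.2 and 81.9 in T24h, against 168 and 397 in C24h A and C. MLO15, of a family of membrane proteins known from susceptibility to mildew, had 70.2, 50.7 and 64.4 in T12h, against 71.5, 51.1 and 62.5 in C12h, and 161, 536 and 1233 in T24h, against 58.7 and 88.5 in C24h A and C. All T24h libraries of MLO15 lay above both controls but spread widely, and the library labelled C24h B, at 1172, was next to T24h C. Its difference was 2.699, and 1.36 with all libraries.

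RNS3, an extracellular ribonuclease, had 7.80, 0.994 and 11.1 normalized counts in T12h, against 1.79, 0.913 and 0.812 in C12h, and 35.1, 124 and 121 in T24h, against 4.20 and 1.74 in C24h A and C. It is one of the 17 vascular and xylem markers whose sum was given above, and its difference was 2.96. The library labelled C24h B stood at 109, and with it included the difference was 1.33. On the reads recovered from 13 libraries, without T12h B and T24h B, and with C24h B kept, edgeR gave a negative difference for RNS3 (-1.77), LOC110818116 (-1.13), LOC110822982 (-0.66) and LOC110809026 (-0.20). LOC110818116 (3.64), LOC110822982 (3.45), LOC110822698 (3.63) and LOC110809026 (3.76) had no symbol and had their highest levels in T24h. With all 15 libraries in limma their differences were 1.59, 1.63, 2.41 and 2.44, in that order. Of these LOC110818116 had 5.57, 11.9 and 9.996 in T12h, against 0, 1.83 and 0.812 in C12h, and 195, 109 and 138 in T24h, against 3.15 and 0 in C24h A and C. LOC110813006 (3.40) reached 373, 1101 and 3427 in T24h, with the library labelled C24h B at 3460.1, next to T24h C, and its difference was 2.24 with all libraries. It passed between T24h and T12h (adjusted p = 0.0485), but not with the replicate block (0.0657) or without any 1 of 8 libraries.

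In a pair of genes with large positive differences the control libraries differed between the times at least as much as the treated ones. CRC, a symbol used for a seed storage protein and for a floral regulator and 1 of the 12 seed markers above, had 209, 21.9 and 60.0 normalized counts in T12h, against 224, 26.5 and 16.2 in C12h, and 115, 14.1 and 28.8 in T24h, against 8.39 and 0.868 in C24h A and C. Treated values were lower at 24 h than at 12 h in each harvest, and C24h A and C lay far below C12h A and C. The difference of 2.67 was made of -3.50 between C24h and C12h and -0.83 between T24h and T12h. LOC110825575 had a difference of 3.51, made of -1.84 between C24h and C12h and 1.68 between T24h and T12h. With all libraries the difference of CRC was 1.68. Neither gene passed between T12h and C12h, T24h and C24h, T24h and T12h or C24h and C12h.

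**Figure D3:**
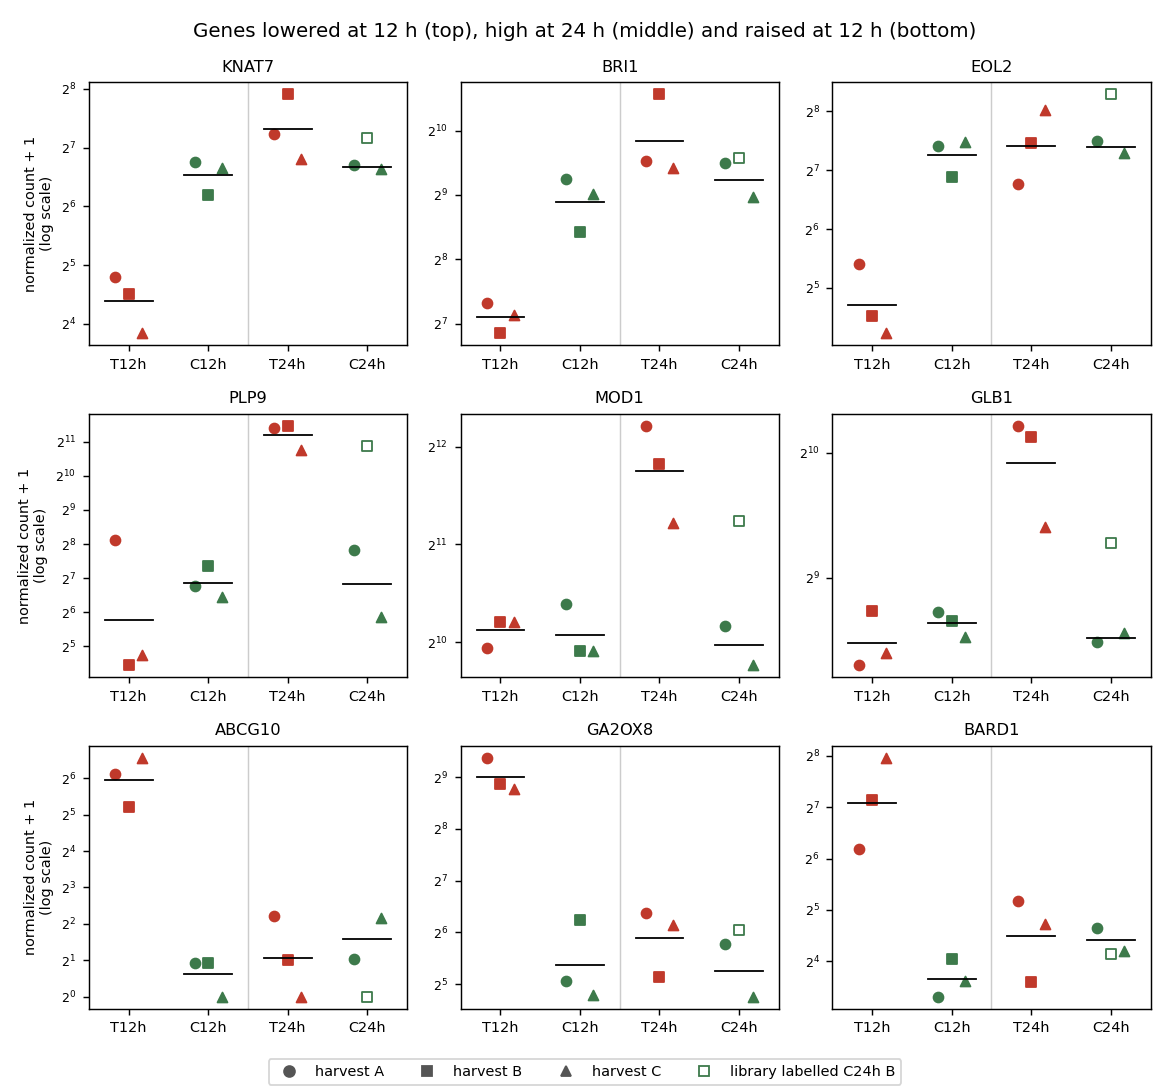
Normalized counts plus 1 on a log axis in T12h, C12h, T24h and C24h for KNAT7, BRI1 and EOL2 (top), PLP9, MOD1 and GLB1 (middle) and ABCG10, GA2OX8 and BARD1 (bottom). Filled symbols are libraries by harvest, the hollow square is the library labelled C24h B, and the bar is the mean of the log2 values without it. The top genes lie below every C12h library at 12 h, the middle genes above C24h A and C in every T24h library, and the bottom genes above every C12h library at 12 h and on overlapping levels with C24h A and C at 24 h.

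One course among genes with a negative difference was a high level at 12 h and a level near controls at 24 h. ABCG10, a membrane transporter of the ABC family, had the largest negative difference of all genes tested. It had 68.0, 35.8 and 93.3 normalized counts in T12h, against 0.894, 0.913 and 0 in C12h, and 3.63, 1.01 and 0 in T24h, against 1.05 and 3.47 in C24h A and C. The gene was thus near 0 in every library compared but those of T12h. The difference was -5.86 (SE 1.02, adjusted p = 0.0506, and 0.144 with all libraries). T12h was higher than C12h (adjusted p = 0.00294) and T24h lower than T12h (0.00684), also without each library in turn.

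GA2OX8, an enzyme that inactivates gibberellins, stood at 662, 464 and 435 normalized counts in T12h, against 32.2, 74.9 and 26.8 in C12h, and at 82.3, 34.2 and 69.2 in T24h, against 53.5 and 26.0 in C24h A and C. ECI1, an isomerase of fatty acid breakdown in peroxisomes, stood at 1035, 1304 and 1579 in T12h, against 67.1, 416 and 109 in C12h, and at 351, 79.5 and 119 in T24h, against 102 and 175 in C24h A and C. PERK11, a receptor-like kinase of the cell surface, stood at 702, 1646 and 1279 in T12h, against 79.6, 134 and 99.0 in C12h, and at 284, 109.7 and 233 in T24h, against 106 and 98.9 in C24h A and C. In all 3 the T12h libraries were above every other library shown, and at 24 h treated and control libraries overlapped for GA2OX8 and ECI1 while the T24h libraries of PERK11 lay just above both controls. The differences were -3.01, -2.98 and -2.56. Each fell between T12h and T24h (adjusted p = 0.0163, 0.0162 and 0.0101), and each of those calls was lost without T12h B or T24h B (up to 0.0901), the first pair also without T12h C.

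HEI10, BARD1 and ATIM also had negative differences. HEI10, a protein of meiotic crossovers, had 595, 435 and 466 normalized counts in T12h, against 0, 15.5 and 0.812 in C12h, and 455, 9.06 and 105 in T24h, against 4.20 and 5.21 in C24h A and C. T24h A remained at the T12h level whereas T24h B was near controls, and the difference was -3.53 (SE 1.95). HEI10 was higher in T12h than in C12h (adjusted p = 0.00769) and did not pass between T24h and T12h (0.294). BARD1, a partner of BRCA1 in DNA repair, had 71.3, 139 and 248 in T12h, against 8.94, 15.5 and 11.4 in C12h, and 35.1, 11.1 and 25.4 in T24h, against 24.1 and 17.4 in C24h A and C. The groups were apart at 12 h and overlapped at 24 h, a difference of -3.35, and BARD1 fell between T12h and T24h (adjusted p = 0.0283, lost without T12h B, T12h C or T24h B, up to 0.14). ATIM, the Arabidopsis relative of the replication fork protein Timeless, had a difference of -2.84. It passed between T24h and T12h (adjusted p = 0.0407), but not with the replicate block (0.0545) or without any 1 of 8 libraries.

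ICE1, a transcription factor of cold response and stomatal development, had 229.5, 188 and 193 normalized counts in T12h, against 21.5, 75.8 and 31.7 in C12h, and 116, 14.1 and 18.5 in T24h, against 30.4 and 52.1 in C24h A and C. T24h A was intermediate and T24h B and C were below both controls, a difference of -2.74. ICE1 passed between T24h and T12h (adjusted p = 0.0386), but not with the replicate block (0.0522) or without any 1 of 6 libraries. Genes without a symbol included LOC110816221 (-4.19), LOC110806660 (-4.17), LOC110817181 (-4.11), LOC110813129 (-3.49), LOC110812657 (-3.28), LOC110806431 (-3.23) and LOC110808276 (-3.16). Of these, LOC110808276 passed between T24h and T12h (adjusted p = 0.0498), but not with the replicate block (0.0688) or without any 1 of 9 libraries (up to 0.211). The most abundant was LOC110806660, with 279.6, 1042 and 1259 in T12h, against 19.7, 96.8 and 26.0 in C12h, and 226, 41.3 and 47.3 in T24h, against 62.9 and 84.2 in C24h A and C.

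A further set of genes lay at or above controls at 12 h and below them at 24 h. BXL1, a xylosidase that trims side chains of wall polysaccharides, had 1029, 1539 and 596 normalized counts in T12h, against 470.4, 592 and 717 in C12h, and 246, 284 and 567 in T24h, against 811 and 1506 in C24h A and C. The groups overlapped at 12 h and stood apart at 24 h, with the library labelled C24h B, at 652, between them. Its difference was -2.44. It passed between T24h and T12h (adjusted p = 0.038), but not with the replicate block (0.0528) or without any 1 of 7 libraries. ABI2, another phosphatase of abscisic acid signalling, had 82.3, 6.04 and 29.99 in T24h and 75.5 and 46.9 in C24h A and C, which overlapped, and a difference of -2.68.

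Genes of DNA replication were also among these. The MCM proteins form the helicase that opens DNA before synthesis. MCM4 had 47.9, 28.8 and 43.3 normalized counts in T12h, against 8.05, 26.5 and 11.4 in C12h, and 16.9, 4.02 and 4.61 in T24h, against 24.1 and 21.7 in C24h A and C. MCM6 had 61.3, 59.6 and 93.3 in T12h, against 31.3, 53.9 and 53.6 in C12h, and 33.9, 14.1 and 12.7 in T24h, against 53.5 and 66.8 in C24h A and C. Treated libraries of MCM6 lay above every control at 12 h and below both at 24 h, while in MCM4 they lay above every control at 12 h and T24h A lay between T24h B and C and the controls. The differences were -3.05 and -2.28, and with the library labelled C24h B, at 4.53 and 1.51, they were -2.34 and -0.75.

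Of 11 genes of replication licensing and the fork, grouped after their values were seen, 10 had a negative difference, with a median of -1.25, against 0.00 over all genes, and with all 15 libraries 9 of 11 were negative with a median of -1.05. The exception was ORC2, of the origin recognition complex, at 2.21. PCNA2, the clamp that holds the polymerase on DNA, fell between T12h and T24h (adjusted p = 0.0375, lost without C12h B, T12h B, T12h C, T24h B or T24h C, up to 0.154) and had a difference of -1.21. ORC2 was lower in T12h than in C12h (adjusted p = 0.00368) and rose between T12h and T24h (adjusted p = 0.0217, lost without T12h B, T12h C or T24h B, up to 0.116). In the wider list of cell cycle and histone genes, of which 38 of 50 in the table were tested, 28 had a negative difference, the median was -0.68 and 15 were below -1, whereas 6.87% of all genes were. None of the 38 passed the test of the difference, against 0.0589% of all genes without C24h B. Between T12h and T24h 3 fell and 1 rose, against 2.31% and 3.21% of all genes. The histone variant gene HTA11 had 16.7, 14.9 and 17.8 in T12h, against 2.68, 9.13 and 7.31 in C12h, and 1.21, 0 and 3.46 in T24h, against 11.5 and 7.81 in C24h A and C, a difference of -3.66 at few counts.

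Starch genes had a smaller negative difference. SS2, a starch synthase, had 57.9, 79.5 and 74.4 normalized counts in T12h, against 16.99, 32.9 and 22.7 in C12h, and 16.9, 24.1 and 36.9 in T24h, against 39.9 and 26.9 in C24h A and C. The groups were apart at 12 h and overlapped at 24 h, a difference of -1.93. Of 11 genes of starch synthesis and debranching, again grouped after their values were seen, 10 had a negative difference (median -0.63), and with all 15 libraries all 11 had one (median -0.53). Of these 4 were higher in T12h than in C12h and none lower, against 11.7% and 12.3% of all genes, and 1 (2.31% of all genes), SS2, fell between T12h and T24h (adjusted p = 0.0291, lost without T12h B, T12h C, T24h A or T24h B, up to 0.12). In the list of sucrose, starch and sugar transport genes, of which 46 of 52 in the table were tested, 33 had a negative difference (median -0.28).

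**Figure D4:**
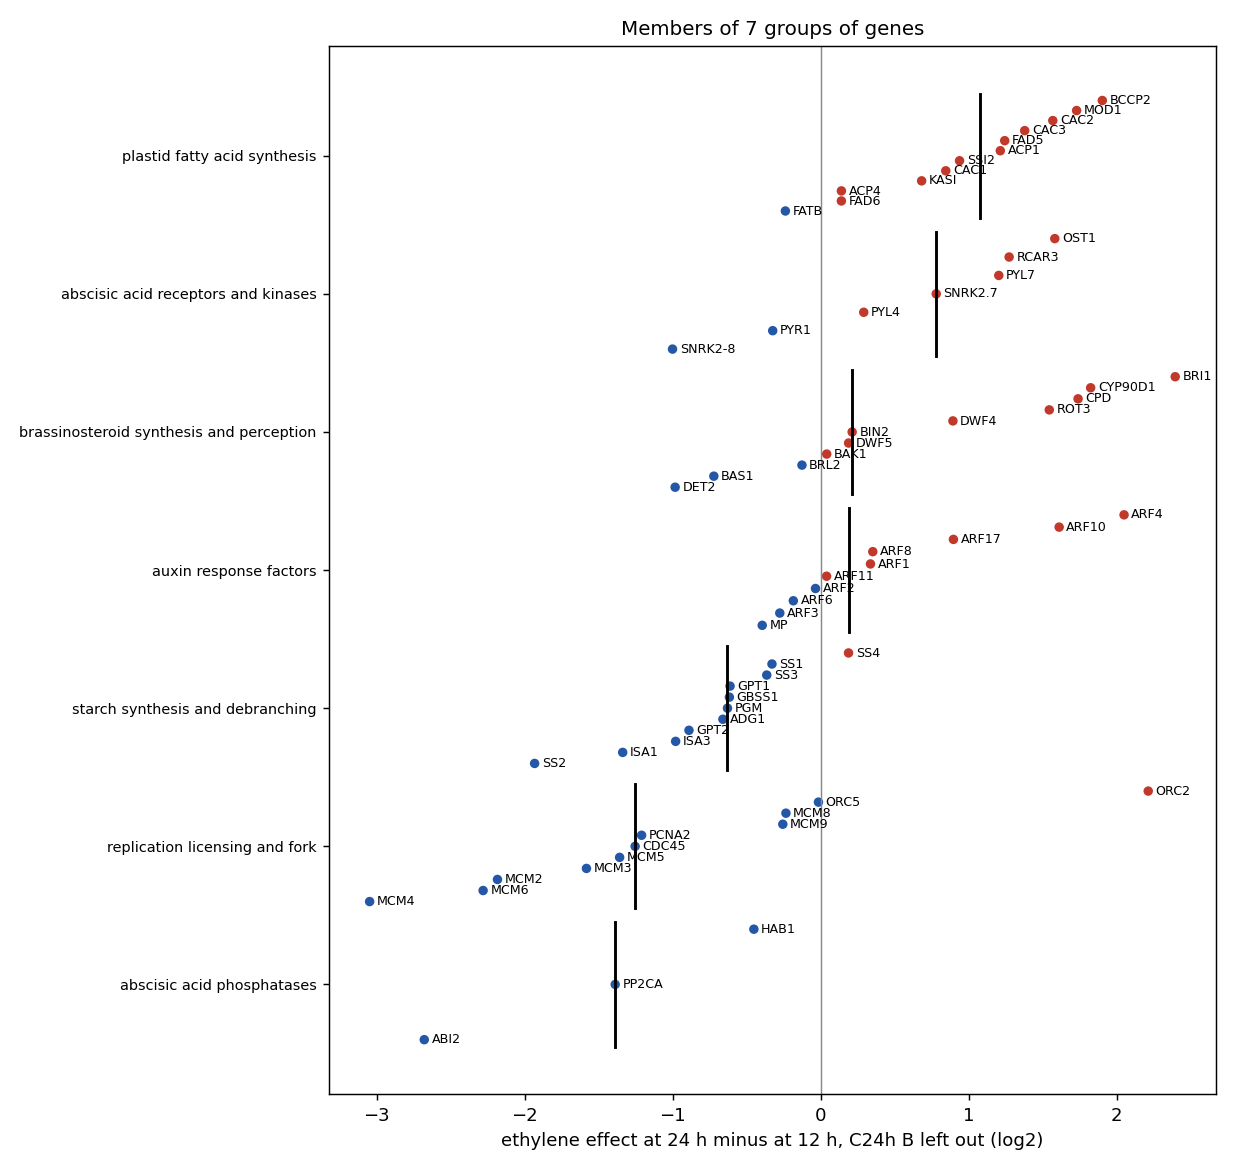
Each point is a gene of 1 of 7 groups, placed by its ethylene effect at 24 h minus at 12 h (log2, C24h B left out), red above 0 and blue below, and the black bar is the group median. The groups were drawn after their values were seen. The medians run from 1.08 for plastid fatty acid synthesis to -1.39 for the phosphatases of abscisic acid signalling.

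Receptors and signalling genes of the ethylene pathway had differences of -1.15 to 0.74. ERS1, an ethylene receptor, stood at 10149, 11921 and 8069 normalized counts in T12h, against 1274, 3613 and 1016 in C12h, and at 11926, 1567 and 5813 in T24h, against 1945 and 1646 in C24h A and C. T24h A stood at the T12h level, T24h C between that level and controls and T24h B among the controls, a difference of -1.15 (SE 1.104, adjusted p = 0.653). For the receptor ETR1 the difference was -0.26, for CTR1, the kinase the receptors control, -0.08, for EIN2, which carries the signal to the nucleus, -0.26, and for EBF1, which marks the transcription factor EIN3 for breakdown, 0.74. ERS1, ETR1 and CTR1 were higher in T12h than in C12h (adjusted p = 0.0301, 0.0317 and 0.0405), calls that were each lost without C12h A, C12h C, T12h A, T12h B or T12h C (up to 0.151). With the replicate block that of CTR1 was lost (0.0508). With all libraries the difference was -0.58 for ETR1 and -0.30 for CTR1. None of the 11 receptor and signalling genes passed the test of the difference, against 0% of all genes with all libraries and 0.0589% without C24h B. Nor did any pass between T24h and T12h, against 5.51% of all genes, so counts of 0 among 11 genes tell little. ACS12, which is named as an ACC synthase but is known in Arabidopsis as an aminotransferase, had 448, 356 and 377 in T12h, against 411, 307 and 250.0 in C12h, and 928, 1121 and 856 in T24h, against 329 and 172 in C24h A and C, a difference of 1.70, and of 1.09 with all libraries.

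Polygalacturonases cut the pectin of the cell wall as fruit soften. Of 12 numbered in the study's network, 7 paired with a tested gene, and their differences ran from -1.22 (LOC110813488) to 1.65 (LOC110814146). None was called in the test of the difference, against 0% of all genes with all libraries and 0.0589% without C24h B. The most abundant, LOC110826274, had 70910.4, 63518 and 81339.6 normalized counts in T12h, against 552, 10039 and 759 in C12h, and 101366, 18300.3 and 47015 in T24h, against 2018 and 673 in C24h A and C. With C24h B left out, treated libraries were above every control of their age at both times. The effect was then 5.47 at 12 h and 5.25 at 24 h, and the difference of -0.22 was small beside its SE of 1.75. With all libraries it was -2.03 (SE 2.12). LOC110814146, a polygalacturonase low in treated pulp, had 11.1, 10.9 and 5.55 in T12h, against 178, 96.8 and 170.5 in C12h, and 18.1, 58.4 and 31.1 in T24h, against 95.4 and 249.9 in C24h A and C. The other 4 had differences of 0.62 (LOC110821988), 0.32 (LOC110807205), 0.69 (LOC110811267) and 1.29 (LOC110809302). With all libraries these were 0.59, 0.17, 0.07 and -0.04, in that order, and the last 3 changed sign without single libraries. LOC110813488 was at -1.87 with all libraries.

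The remaining lists of pathways and gene families had medians of -0.24 (NAC transcription factors) to 0.40 (galactosidases, xylosidases and arabinogalactan proteins), against 0.00 over all genes. The 48 tested of 77 genes of xyloglucan, cellulose and expansins had a median difference of -0.19, the 10 of 13 of pectin cleavage and its inhibitors 0.39, and the 40 of 42 heat shock factors and chaperones -0.11. The 25 tested of 28 carotenoid and isoprenoid genes had a median of 0.29, with 19 above 0 and none beyond 1 in size. Their member ZDS, a desaturase on the way to lycopene, had 9679, 9539.7 and 11873 normalized counts in T12h, against 10341, 8145 and 8617 in C12h, and 18366, 21345 and 14323 in T24h, against 10794 and 6556 in C24h A and C. Groups of ZDS overlapped at 12 h and stood apart at 24 h, a difference of 0.88. LON1, in the list of 44 tested proteases and autophagy genes, was the only member of the 30 lists among the 9 genes called without C24h B.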

How the data were processed

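Pulp RNA was sequenced as stranded mRNA libraries, and the authors cleaned reads with SeqyClean, checked them with FastQC, aligned them to the Papaya1.0 genome with STAR and kept uniquely aligned reads. The counting tool is not given in the sources used here. The deposited values are a signal, gene counts that the authors divided by DESeq2 size factors, in 1 table of 20332 rows, of which 1846 were at 0 in all 15 libraries. In 13 libraries the values were whole multiples of 1 read within 0.001, which gave back the reads. T12h B and T24h B were also whole multiples, of a step close to 1, but were not used as reads, so count tests ran on 13 libraries. Since reads aligned more than once were dropped, values of multigene families are uncertain. All 15 columns were mapped to libraries by name, with 0 left unmapped.

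Genes averaging 5 or more (15270) were tested with limma 3.58.1 in R 4.3.3 (trend, log2 of the value plus 1, 5 groups, Benjamini-Hochberg adjusted p of at most 0.05), with all 15 libraries and again with C24h B left out because of its values. Fold changes on that scale understate changes of low genes. Replicates are pools of fruit from 3 harvests, so p-values measure the spread between pools. The letters A, B and C pair libraries by harvest, from the study's methods. Deviations from group means, which included C24h B, had a median r of -0.04 over 30 same-harvest pairs (lowest -0.45). In mean absolute log2 difference, C12h C and C24h C lay 0.304 apart and C12h A and C24h A 0.362. Across these harvests, C12h C and C24h A lay 0.436 apart and C12h A and C24h C 0.457. C0h A and C12h A, of the same harvest, lay 0.518 apart, against 0.355 for C0h B and C12h A. The script was tested on simulated data. Alternatives were other pseudocounts, filters, scalings, weights, a replicate block by harvest, leaving out each library, and edgeR 4.0.16 and DESeq2 1.42.0 on recovered reads.

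Genes were named as the most positive and negative differences, in all and among genes with a symbol, with a group mean of at least 50 and the same sign in harvests A and C, plus up to 3 genes of each of 30 lists. Others, such as CPD, OST1, CAC2, LON1 and the 9 called genes, were added once their values had been seen. The members and lists were chosen with earlier results of these data known. Symbols come from the RefSeq table of assembly ASM5485532v1, used for names only, in which 17406 of 19817 LOC identifiers were found. Polygalacturonase numbers were paired through the study's gene numbers.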

Additional observations from a re-analysis of the deposited data

Results flagged for a closer look

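With C24h B left out, the test of the difference itself (limma, 14 libraries, adjusted p of 0.025 to 0.0435) gave 9 genes whose ethylene effect at 24 h differed from that at 12 h, 0.0589% of the 15270 tested. Higher at 24 h were ATHM3 (2.97), LOC110809504 (2.71), LOC110825205 (2.50), LOC110823892 (2.30) and LOC110809761 (1.48). Lower at 24 h were LOC110820624 (-3.05), MAP70-5 (-2.36), LOC110817712 (-2.02) and LON1 (-1.61). With all 15 libraries none of the 9 passed, with adjusted p values of 0.13 to 0.342. With C24h B left out none of the 9 passed when harvest was a replicate block (0.0519 to 0.0882), and 2 passed with C0h left out of the fit. In each of the 9 the library labelled C24h B stood nearer to T24h than to C24h A and C. It also did so in 2973 (90.6%) of the 3280 genes whose effect at 24 h exceeded 1 in size without it, so this is not particular to the 9. Why that library stood there was not tested.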

How the results depend on the processing

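With all 15 libraries the test of the difference called 0 genes (1938 at an unadjusted p of 0.05), edgeR called 0 and DESeq2 13 on recovered reads, library quality weights gave 1097, and leaving out single libraries gave 0 to 9. With C24h B left out it called 9. The count was 9 with a pseudocount of 0.5, 23 with a pseudocount of 5, 7 with no filter on low values and 18 among genes with a mean of at least 50. It was 19 with TMM scaling, 6 with quantile normalization, 2 with 4 groups in the fit and 22 with quality weights. On the libraries with recovered reads it was 0 with limma (chosen after seeing the data), 0 with edgeR and 79 with DESeq2. Leaving out a further library gave 0 to 215, the highest without T24h A, with 60 without T24h C. The replicate block by harvest gave 0 calls with C24h B left out and 0 with all libraries. It lost 8 of 55 named calls between T24h and T12h and 1 of 47 between T12h and C12h, and added 1 to each.

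The 3675 calls between T12h and C12h became 6762 with weights and 1878 on libraries with recovered reads, and ran from 841 to 5180 without single libraries. The 0 between T24h and C24h became 4950 with weights and ran from 0 to 3601. The 842 between T24h and T12h became 498 with 4 groups, 1535 with weights, 1 on libraries with recovered reads and 669 with the replicate block, and ran from 36 to 1607. The 0 between C24h and C12h became 1019 with weights and ran from 0 to 0.

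With all libraries, 28 of 1970 values of 83 named genes changed sign, 73 passed where the main one did not, and 1869 did neither. LOC110809302 was 0.0064 with a pseudocount of 0.5, 0.84 with weights, and -0.91 to 1.29 without single libraries (0.09 to 1.29 without C12h A, C12h C, T12h C, C24h B, T24h B or T24h C). LOC110811267 was -0.70 with weights, -1.12 to 0.76 without single libraries (negative without C12h B, T12h B, C24h C or T24h A), and -0.995, -0.63 and -0.65 with limma, edgeR and DESeq2 on recovered reads. LOC110807205 ran from -0.45 to 0.84 (negative without T12h A, T12h B or T24h A) and MCM6 from -2.28 to 0.10 (positive without C24h C). On recovered reads edgeR and DESeq2 gave -1.77 and -1.97 for RNS3, -0.66 and -0.77 for LOC110822982, -1.13 and -1.38 for LOC110818116, and -0.20 and -0.29 for LOC110809026. Of 207 values of the 9 genes called with C24h B left out, 102 lost the call. The causes were not tested. Depth limits genes near 5 normalized counts, where a few reads set the difference.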
